A study of Mus musculus with 6 samples.

Results

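Dendritic cell genes including *Cd207* were followed through the lungs of GRdim/dim and GR+/+ mice after hemorrhagic shock (HS). The set held 9 genes, *Cd207*, *Itgae*, *Clec9a*, *Batf3*, *Irf8*, *Flt3*, *Zbtb46*, *Cd209a* and *Irf4*, taken by gene symbol from a read-count matrix of 54532 genes. It was put together with the difference between the genotypes already known, so that difference is described for these genes, and whether a gene passed the fit over all genes is given as part of the description and not as a test. In GRdim/dim lungs the *Cd207* level was 5.93 ± 1.0 CPM (counts per 1000000 library counts; SD, n = 3), against 1.35 ± 0.305 CPM (SD, n = 3) in GR+/+ lungs. No other gene of the set came near this 4.38-fold difference, and the genes usually expressed beside *Cd207* in lung dendritic cells differed by far less or were fitted lower.

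GRdim/dim mice carry a mutation in the glucocorticoid receptor (GR) gene *Nr3c1*, present in every cell, that impairs pairing of the receptor on DNA, and the GR+/+ mice were their littermates on the same 129/SvEv x C57BL/6 background. All 6 mice, 10 to 16 weeks old, were bled under anesthesia and ventilation to a mean arterial pressure of 35 mmHg, kept there for 1 h, given their blood back and resuscitated for 4 h with fluids and norepinephrine in a mouse intensive care unit. Every lung had thus been through HS, and unshocked lungs were not analysed here. GR+/+ mice comprised 2 females and 1 male, and GRdim/dim mice 1 female and 2 males. The labels do not say which mouse was of which sex, and *Xist* and Y-linked genes gave the same numbers for each genotype. One mouse was treated per day, so day and mouse cannot be told apart. Counts per gene do not show the *Nr3c1* mutation itself.

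Dendritic cells capture antigen and carry it to lymph nodes, where they activate T cells. Conventional dendritic cells (cDC) depend on the FLT3 receptor and fall into a cDC1 branch, which needs BATF3 and IRF8 and takes up dead cells through CLEC9A, and a cDC2 branch, which relies more on IRF4. In mouse lung, the cDC1 that lie along the airway epithelium carry the integrin chain CD103, encoded by *Itgae*, and the lectin langerin, encoded by *Cd207*. Several of the 9 genes are also used by other cells of a lung piece: *Itgae* by resident T cells, *Zbtb46* by endothelium, *Irf8* by B cells and macrophages, *Irf4* by lymphocytes. The set is therefore named for its best-known users, and a bulk library does not tell which cells the reads came from. Fewer cells of a type and less RNA per cell cannot be told apart in such libraries either.

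The promoters of *Cd207* and *Cd209a* are printed because these C-type lectin genes had the largest fitted differences of the set. Each sequence runs 5′ to 3′ from 250 bases before to 50 bases after the RefSeq start site in build GRCm38.p6, *Cd207* at chr6:83677808-83678107 and *Cd209a* at chr8:3748935-3749234, both on the minus strand. Capitals mark matches to motifs searched on both strands.
Cd207: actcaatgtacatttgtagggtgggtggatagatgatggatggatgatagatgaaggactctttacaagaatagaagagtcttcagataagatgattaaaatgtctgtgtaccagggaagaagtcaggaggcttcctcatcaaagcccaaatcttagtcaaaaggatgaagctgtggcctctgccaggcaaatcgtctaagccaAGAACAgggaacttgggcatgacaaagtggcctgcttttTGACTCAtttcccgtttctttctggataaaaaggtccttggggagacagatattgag
Cd209a: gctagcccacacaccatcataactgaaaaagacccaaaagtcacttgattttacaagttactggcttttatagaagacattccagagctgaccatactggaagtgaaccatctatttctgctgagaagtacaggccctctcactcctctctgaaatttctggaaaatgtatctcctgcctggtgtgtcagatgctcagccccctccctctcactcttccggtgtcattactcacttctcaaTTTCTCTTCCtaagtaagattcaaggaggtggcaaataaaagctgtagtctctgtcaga
In the *Cd207* promoter the motif AGAACA, to which a single GR molecule can bind, began 46 bases before the start site and the AP-1 motif TGANTCA began 7 bases before it. Of all 32851 RefSeq mouse promoters of this length, 18.97% held AGAACA and 7.808% the AP-1 motif. The *Cd209a* promoter held the ETS-IRF composite motif on the opposite strand, 9 bases before the start site, a motif found in 2.715% of promoters. The other motifs searched were the palindromic glucocorticoid response element that a receptor pair binds (0.009132% of promoters), the core of the interferon-stimulated response element (3.443%) and the negative glucocorticoid response element CTCCGGAGA (0.3166%) with its forms spaced by 1 base (0.7367%) and by 2 bases (0.6758%), and none of these occurred in the 9 promoters found for 8 of the genes. *Itgae* was not matched. *Zbtb46* held AGAACA and the AP-1 motif, and the promoters of *Clec9a*, *Batf3*, *Irf8*, *Flt3* and *Irf4* held none of the 8 motifs. A match describes the letters of a window and is not a measured binding site.

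Sequencing depth ranged from 16361747 to 32082940 counts among the GR+/+ lungs, of which replicate 3 was the deepest, and from 15687734 to 24444604 among the GRdim/dim lungs. Lung markers were abundant in all 6 libraries. Of the 16568 genes with enough reads for edgeR's quasi-likelihood test, 28 passed an adjusted p-value of 0.05 with a log2 fold change beyond 0.5, which is 0.169% of the genes tested, 12 of them higher in GRdim/dim (0.0724%) and 16 lower (0.0966%). DESeq2 called 272 genes (1.71%), 128 higher (0.804%) and 144 lower (0.905%). All 9 genes of the set were tested. *Cd207* was the 1 gene called, by either tool, and because the set was chosen from this contrast nothing further is read from that count.

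*Cd207* (ENSMUSG00000034783, chromosome 6, 83671215 to 83677857, minus strand, build GRCm38) encodes langerin, a lectin that binds sugars on microbes and forms the Birbeck granules of Langerhans cells. Its raw counts were 18, 28 and 41 in GR+/+ replicates 1, 2 and 3 and 91, 144 and 107 in GRdim/dim replicates 1, 2 and 3. Scaled to library size, these were 1.08, 1.68 and 1.30 CPM in GR+/+ lungs and 4.91, 5.98 and 6.91 CPM in GRdim/dim lungs. All GRdim/dim lungs lay above all GR+/+ lungs, and the gap between the groups was wider than the whole range within either. Counting error alone (exact Poisson interval, 95%) put the highest GR+/+ library at 1.12 to 2.43 CPM and the lowest GRdim/dim library at 3.95 to 6.02 CPM, so those intervals did not meet. Such intervals leave out differences between mice, and the gene was chosen with this difference known. The fitted log2 fold change was 2.13 (SE 0.33). Among the 16568 genes tested, 30 had a larger fitted log2 fold change, or 0.181%. With any 1 library left out the estimate stayed between 2.0 and 2.31 while the gene was no longer called in any of these fits. It was also not called with a covariate for sex-linked expression, at a log2 fold change of 2.21, and after drawing all libraries down to the smallest total, at 2.10.

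*Itgae* (chromosome 11, 73090583 to 73147446) encodes CD103, the integrin chain that pairs with the product of *Itgb7* and binds E-cadherin on epithelium. Its level was 6.93, 8.39 and 4.76 CPM in the GR+/+ libraries and 10.2, 9.51 and 8.52 CPM in the GRdim/dim libraries. The genotypes did not overlap, but the lowest GRdim/dim lung stood barely above the highest GR+/+ lung. The fitted log2 fold change was 0.50 (SE 0.28), and it was 0.30 without GR+/+ replicate 3. The cDC1 along the airways carry both *Cd207* and *Itgae*, but *Itgae* is also used by resident T cells, so the reads need not share a source. *Cd207* counts per *Itgae* count were 0.155, 0.200 and 0.273 in GR+/+ lungs and 0.479, 0.629 and 0.811 in GRdim/dim lungs. This ratio needs no scaling between libraries, and its mean was 3.05-fold higher in GRdim/dim lungs without overlap.

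**Figure D1:**
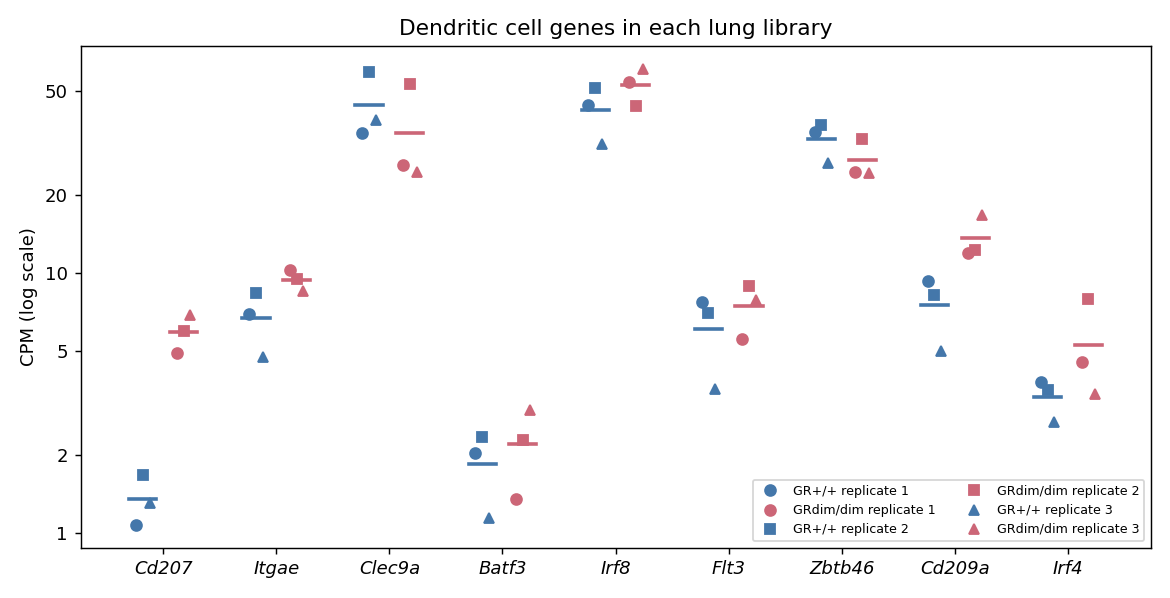
Level of the 9 dendritic cell genes in each of the 6 lung libraries, in CPM on a log axis, with horizontal bars at the mean of the 3 libraries of a genotype (blue, GR+/+; red, GRdim/dim). *Cd207* showed the widest gap between genotypes, 1.08 to 1.68 against 4.91 to 6.91 CPM, while the points of *Clec9a*, *Batf3*, *Irf8*, *Flt3*, *Zbtb46* and *Irf4* interleaved.

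*Clec9a* (chromosome 6, 129408862 to 129424763), the receptor by which cDC1 recognise actin exposed on dead cells, went the other way from *Cd207* in its mean. Its level was 34.7, 59.0 and 38.6 CPM in GR+/+ lungs and 25.9, 53.5 and 24.3 CPM in GRdim/dim lungs. Replicate 2 was the high library in both genotypes, and the genotypes overlapped. The fitted log2 fold change was -0.35 (SE 0.32). It was -0.14 with a covariate for sex-linked expression and between -0.81 and -0.08 with 1 library left out. *Cd207* counts per *Clec9a* count was 0.0285 to 0.0337 in GR+/+ lungs and 0.112 to 0.284 in GRdim/dim lungs, a 6.28-fold difference of means.

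*Clec9a* sits in a cluster of lectin genes, and 184 bases of its exons overlap those of *Clec1b* on the same strand. Of its transcript windows of 31 bases, 4.63% also occur in *Clec1b*, and *Clec1a* lies 0.009 kb beyond its end on the opposite strand. The use of strand in the counting is not given in the sources used here, so reads at these edges are of uncertain origin. The deviations of *Clec9a* from its genotype means, over the 6 libraries, correlated with those of *Clec12b* at r = 0.95, *Clec1b* at r = 0.94, *Tek* at r = 0.87, *Clec1a* at r = 0.85 and *Xcr1* at r = 0.69, neighbours and markers picked after the values had been seen. *Xcr1* encodes the chemokine receptor of cDC1, *Clec1b* a platelet and myeloid lectin, and *Tek* an endothelial receptor. The endothelial markers *Pecam1* and *Cdh5* gave lower values than *Tek*, at r = 0.31 and r = 0.29. Whether endothelial or neighbouring transcripts contributed reads to *Clec9a* was not tested.

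*Batf3* (chromosome 1, 191097847 to 191108945), the AP-1 family factor that cDC1 need to form, was among the lowest of the set. Its level was 2.03, 2.34 and 1.14 CPM in GR+/+ lungs and 1.35, 2.28 and 2.97 CPM in GRdim/dim lungs. The libraries interleaved, and the fitted log2 fold change of 0.27 (SE 0.44) fell to 0.01 without GR+/+ replicate 3. *Irf8* (chromosome 8, 120736358 to 120756694), which works with BATF3 to fix cDC1 identity, measured 44.2, 51.3 and 31.4 CPM in GR+/+ lungs and 54.0, 43.7 and 61.0 CPM in GRdim/dim lungs. GRdim/dim replicate 2 was below 2 of the 3 GR+/+ lungs, and the fitted log2 fold change was 0.32 (SE 0.22). The transcription factors of the cDC1 branch thus showed no separation of genotypes of the kind seen for *Cd207*.

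*Flt3* (chromosome 5, 147330741 to 147400489) encodes the growth factor receptor on which dendritic cell numbers depend. Its level was 7.71, 7.01 and 3.59 CPM in GR+/+ lungs and 5.55, 8.89 and 7.88 CPM in GRdim/dim lungs, at a fitted log2 fold change of 0.30 (SE 0.34). The groups overlapped, and the estimate was 0.02 without GR+/+ replicate 3. *Zbtb46* (chromosome 2, 181387762 to 181459426), a factor that keeps committed conventional dendritic cells in their state, measured 34.9, 36.9 and 26.6 CPM in GR+/+ lungs and 24.4, 32.7 and 24.2 CPM in GRdim/dim lungs. It was fitted lower in GRdim/dim, at -0.27 (SE 0.21), with overlapping libraries. *Flt3* and *Zbtb46*, shared by both cDC branches, therefore had fitted differences of opposite sign, each with a standard error close to its own size.

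*Cd209a* (chromosome 8, 3743397 to 3748984), also called DC-SIGN in mouse and carried by cDC2 and monocyte-derived dendritic cells, had the next largest fitted difference. Its level was 9.32, 8.21 and 5.02 CPM in GR+/+ lungs and 11.9, 12.3 and 16.7 CPM in GRdim/dim lungs. The genotypes did not overlap. The fitted log2 fold change was 0.86 (SE 0.29), and 0.63 without GR+/+ replicate 3, with all GRdim/dim lungs still above the other GR+/+ lungs. None of its 31-base windows occur in another gene, so the related *Cd209* genes on the same chromosome share no such stretch with it. *Irf4* (chromosome 13, 30749226 to 30766976), the factor of the cDC2 branch, measured 3.82, 3.54 and 2.67 CPM in GR+/+ lungs and 4.53, 7.93 and 3.42 CPM in GRdim/dim lungs. GRdim/dim replicate 2 was far above the rest and replicate 3 fell among the GR+/+ lungs, so the fitted log2 fold change of 0.68 (SE 0.37) was between 0.26 and 0.91 with 1 library left out.

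Over the whole set, 3 genes, *Cd207*, *Itgae* and *Cd209a*, had all GRdim/dim libraries above all GR+/+ libraries and 0 had them all below. Of all genes tested, 7.77% were separated in this way with GRdim/dim higher and 7.05% with GRdim/dim lower. The fitted log2 fold change was above 0 for 7 of the 9, as it was for 50.9% of all genes, and its median was 0.32, against 0.01 over all genes tested. GR+/+ replicate 3 was the lowest GR+/+ library for 7 of the 9 genes, the exceptions being *Cd207* and *Clec9a*, while it was the lowest for 38.7% of all genes tested. Without it the median of the 9 fell to 0.15 and the *Cd207* estimate was 2.10. The *Cd207* estimate thus moved little without the library whose removal lowered the median of the set the most.

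Compared per kilobase of transcript, *Clec9a* was the most abundant of the set in GR+/+ lungs at 13.4 ± 3.96 CPM per kb (SD, n = 3), and all its libraries lay above those of the next gene. *Irf8* (5.99), *Cd209a* (4.75) and *Zbtb46* (3.85) followed, and their libraries overlapped between neighbours in the order. *Itgae* (1.46), *Batf3* (1.15), *Flt3* (0.988), *Cd207* (0.888) and *Irf4* (0.682) formed the low end, again without separation between neighbours. In GRdim/dim lungs *Cd207* moved up the order, at 3.90 ± 0.659 CPM per kb (SD, n = 3), below *Clec9a* (10.5), *Cd209a* (8.61) and *Irf8* (7.50) and not separated from *Zbtb46* (3.18). There *Itgae* (2.06) was above *Batf3* (1.38), *Flt3* (1.20) and *Irf4* (1.08) in every library, and these last 3 overlapped. *Cd207* was below *Flt3* in mean level in GR+/+ lungs, and in GRdim/dim lungs all its libraries exceeded those of *Itgae*.

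Counted per read of its companions within each library, *Cd207* was higher in GRdim/dim lungs without overlap for each of 11 genes compared. *Cd209a* and *Irf4*, with the next largest fitted log2 fold changes of the set (0.86 and 0.68), were not among the genes compared. The ratio of genotype means was 2.57 against *Xcr1*, 3.05 against *Itgae*, 3.23 against *Itgax*, 3.28 against *Flt3*, 3.46 against *Irf8*, 3.60 against *Batf3*, 5.35 against *Zbtb46* and 6.28 against *Clec9a*. *Itgax* encodes CD11c, a surface integrin of dendritic cells and alveolar macrophages. All these ratios share the *Cd207* counts, so they are views of 1 difference and do not support it separately.

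**Figure D2:**
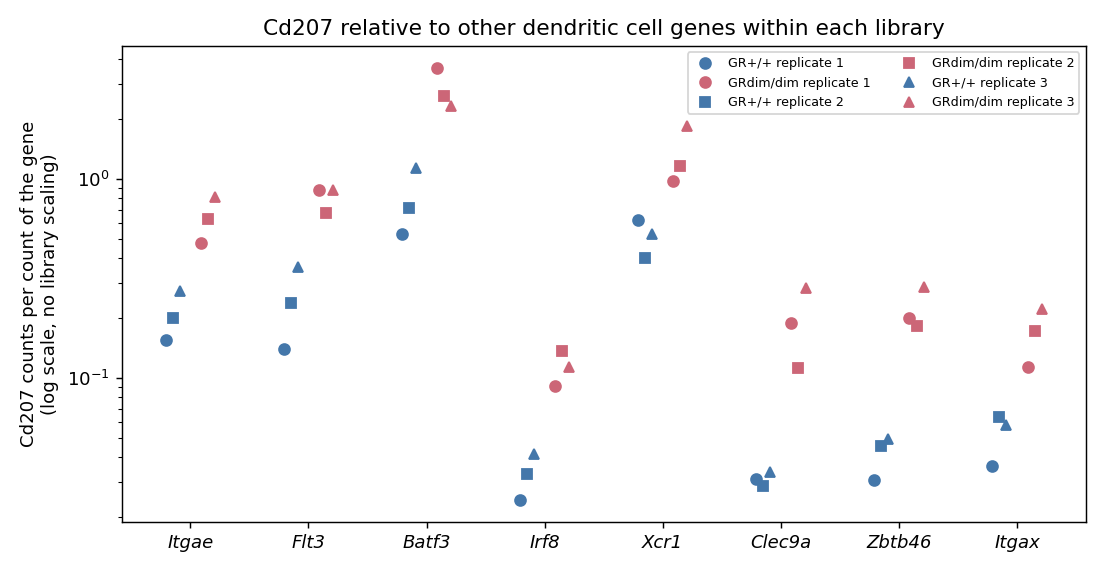
*Cd207* counts per count of 8 other dendritic cell genes in each of the 6 libraries, on a log axis, without any scaling between libraries (blue, GR+/+; red, GRdim/dim). In every column the 3 GRdim/dim points lie above the 3 GR+/+ points. Among the 8 genes shown, the smallest ratio of genotype means was for *Xcr1* (2.57) and the largest for *Clec9a* (6.28). *Cd209a* and *Irf4* were not compared.

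Within genotypes the genes moved together only in part. Each library's deviation from its genotype mean (log2 CPM) was taken for each gene, and over the 6 libraries 32 of the 36 pairs of genes had a correlation above 0, with a median r of 0.44. The highest were *Zbtb46* with *Irf4* (r = 0.88), *Batf3* with *Flt3* (r = 0.87) and *Batf3* with *Cd209a* (r = 0.84). The 8 pairs with *Cd207* had a median r of 0.21, against 0.55 for the 28 pairs without it, and its best partner was *Batf3* (r = 0.60). With *Itgae* it was 0.11. These points share libraries and their scaling, and subtracting the 2 means leaves few independent values, so the correlations are descriptions. With 1 library left out, the median over the 36 pairs was between 0.22 and 0.68.

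**Figure D3:**
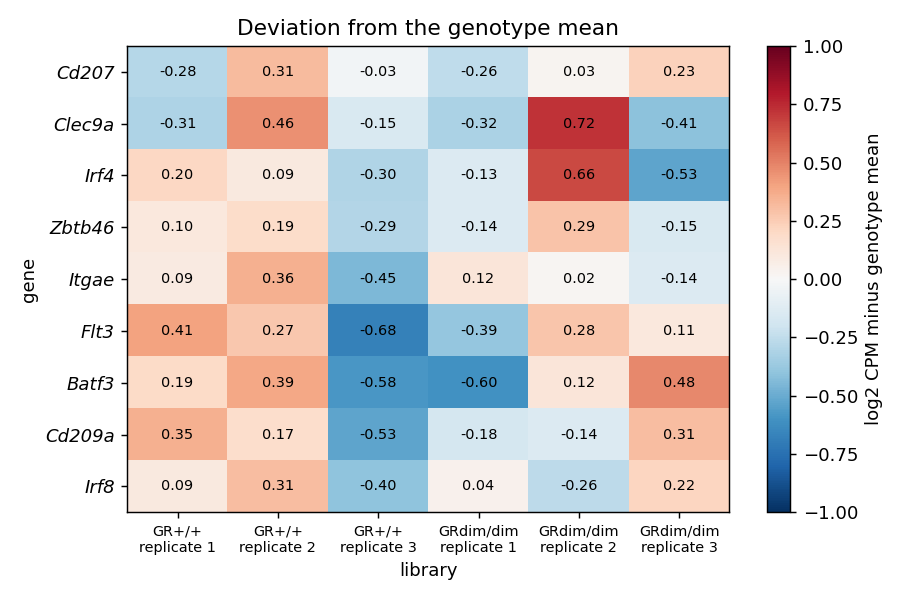
Deviation of each gene's log2 CPM from the mean of its genotype in each library, with blue for lower and red for higher. GR+/+ replicate 3 is blue for all 9 genes but nearly white for *Cd207* (-0.03), and GRdim/dim replicate 2 is darkest red for *Clec9a* (0.72) and *Irf4* (0.66).

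Other dendritic cell genes were taken from lists of companions, written with earlier results of these data known. Of 98 such genes 94 were tested, and edgeR called 0, where it called 0.169% of all genes. At an unadjusted p-value under 0.05, 24 were higher and 2 lower in GRdim/dim, where 4.91% and 4.68% of all genes tested were so. DESeq2 called 4, *Ccr7*, *Cd86* and *Irf7* as higher and *Clec2d* as lower, where it called 1.71% of all genes. The median fitted log2 fold change over the 94 genes was 0.33, against 0.01 over all genes, and 0.22 without GR+/+ replicate 3.

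Of the other cDC1 genes, 0 of 7 were called by either tool, with a median log2 fold change of 0.25. *Xcr1* measured 1.73, 4.20 and 2.45 CPM in GR+/+ lungs and 5.01, 5.15 and 3.75 CPM in GRdim/dim lungs. It overlapped between genotypes, and its log2 fold change of 0.74 (SE 0.38) had an adjusted p-value of 0.582 in edgeR's quasi-likelihood test. The most abundant per kb were *Naaa*, encoding a lipid amidase (log2 fold change 0.30), *Cadm1*, encoding an adhesion molecule (-0.31), and *Tlr3*, encoding a sensor of double-stranded RNA (0.19). Of these 7 genes of the branch to which langerin-bearing dendritic cells belong, 5 were fitted higher and 2 lower. Over all genes tested, 50.9% were fitted higher. *Naaa* was higher and *Cadm1* lower without overlap, as were 7.77% and 7.05% of all genes tested.

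The partners of CD103 and langerin showed a median of 0.15, with 0 of 7 called by either tool. *Itgb7*, the chain that pairs with CD103, measured 25.3, 26.5 and 14.2 CPM in GR+/+ lungs and 26.3, 31.9 and 34.8 CPM in GRdim/dim lungs, at a log2 fold change of 0.50 (SE 0.25) and an adjusted p-value of 0.584 in edgeR. The most abundant of these genes were the E-cadherin gene *Cdh1* (-0.04), *Epcam* (0.04) and the TGF-beta receptor gene *Tgfbr2* (0.06), all mainly used by other lung cells. Ligands and factors of dendritic cell growth and development had a median of 0.05 over 15 genes, with 0 called by either tool. *Flt3l*, the ligand of FLT3, measured 33.7, 39.8 and 16.5 CPM in GR+/+ lungs and 21.1, 39.1 and 29.7 CPM in GRdim/dim lungs, a log2 fold change of 0.00 (SE 0.33). In that list *Id2* (-0.15), a repressor that cDC1 need, *Csf2ra* (0.33), a receptor chain for GM-CSF, and *Csf1r* (0.18), the receptor of macrophage growth factor, were the most abundant.

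Genes of dendritic cell migration and maturation had a median log2 fold change of 0.72 over 14 tested genes, with 0 called by edgeR (0.169% of all genes) and 2 by DESeq2 (1.71% of all genes). *Ccr7*, the receptor that guides dendritic cells to lymph nodes and is also used by T cells, measured 10.5, 9.35 and 6.42 CPM in GR+/+ lungs and 14.7, 22.9 and 15.7 CPM in GRdim/dim lungs. The genotypes did not overlap. Its log2 fold change was 1.03 (SE 0.28), with an adjusted p-value of 0.253 in edgeR and 0.0331 in DESeq2, and 0.0207 to 0.477 over all settings tried. *Cd86*, a costimulatory molecule, measured 4.30, 4.44 and 4.35 CPM in GR+/+ lungs and 8.30, 8.31 and 8.65 CPM in GRdim/dim lungs. Its libraries were tightly grouped and well apart, at a log2 fold change of 0.95 (SE 0.25), and the adjusted p-value was 0.244 in edgeR, 0.0331 in DESeq2 and 0.0331 to 0.530 over all settings. *Cd200* (0.33), *Socs2* (0.39) and *Relb* (0.08) were the most abundant per kb of this list.

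Genes of plasmacytoid dendritic cells, which make type I interferon, had a median of 0.71 over 10 tested genes, with 0 called by edgeR and 1 by DESeq2. *Siglech* measured 1.31, 2.28 and 1.72 CPM in GR+/+ lungs and 4.42, 7.06 and 2.26 CPM in GRdim/dim lungs. GRdim/dim replicate 3 was level with the highest GR+/+ lung, and the log2 fold change of 1.38 (SE 0.44) had an adjusted p-value of 0.359 in edgeR. *Irf7*, the interferon master factor, which is also induced by interferon in many other cells, measured 17.6, 19.8 and 16.2 CPM in GR+/+ lungs and 69.3, 24.4 and 34.1 CPM in GRdim/dim lungs. It did not overlap, at a log2 fold change of 1.25 (SE 0.34), with an adjusted p-value of 0.253 in edgeR and 0.0195 in DESeq2 and 2.98e-05 to 0.511 over all settings. The antiviral gene *Bst2* (0.63), *Cox6a2* (-0.18) and *Irf7* were the most abundant per kb of this list.

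The cDC2 and monocyte-derived list had a median of 0.45 over the 11 of its 13 genes that were tested, with 10 fitted higher and 0 called by either tool. Its most abundant genes were *Esam* (0.13), an adhesion molecule also made by endothelium, *Klf4* (0.68), a factor needed by part of the cDC2, and *Sirpa* (0.45), the phagocytosis receptor of cDC2 and macrophages. Among the 8 antigen presentation genes, with a median of 0.44 and 0 called by either tool, *Cd74* (0.53), *H2-Ab1* (0.62) and *H2-Aa* (0.44), genes of the class II pathway, were the most abundant. Of the other IRF and BATF genes *Irf7* was the 1 called, by DESeq2, and *Irf1* (-0.17), *Irf3* (0.21) and *Irf9* (0.23) were the most abundant of the 9, whose median was 0.23. Among 14 other C-type lectins, with a median of 0.31, *Clec2d*, a ligand of an NK cell receptor, measured 118, 111 and 244 CPM in GR+/+ lungs and 81.4, 67.8 and 59.5 CPM in GRdim/dim lungs. It was lower without overlap, with GR+/+ replicate 3 far above the rest, at a log2 fold change of -1.18 (SE 0.29), with an adjusted p-value of 0.211 in edgeR and 0.0102 in DESeq2 and 2.89e-06 to 0.401 over all settings, and the estimate was -1.37 to -0.72 with 1 library left out. *Clec1a* (-0.55) and *Clec4d* (0.72) were the next most abundant lectins, and both missed the threshold in edgeR and DESeq2.

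**Figure D4:**
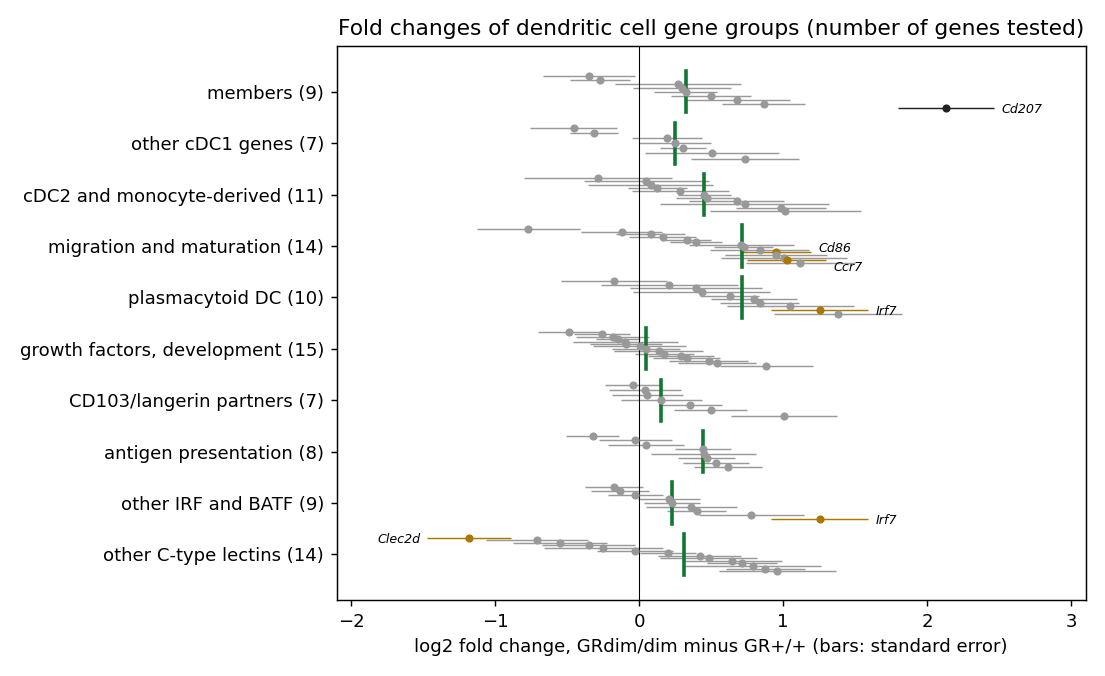
Fitted log2 fold change (GRdim/dim minus GR+/+) of each tested gene with its standard error, by list, with the median of each list as a green bar. The black point is *Cd207* at 2.13, called by edgeR and DESeq2, and the brown points were called by DESeq2 alone. The medians run from 0.05 for growth and development to 0.72 for migration and maturation.

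Markers of other cell types were summed for comparison, and of these 9 marker lists only that of alveolar macrophages had sums that did not overlap between genotypes. Summed levels of 8 T cell markers were 18.2 to 40.9 CPM in GR+/+ lungs and 36.6 to 57.0 CPM in GRdim/dim lungs, with all 8 fitted higher. B cell markers summed to 25 to 59.1 against 58.9 to 91.3 CPM (6 of 6 fitted higher), and NK cell markers to 2.75 to 8.63 against 8.01 to 16.1 CPM (5 of 5). Neutrophil markers summed to 193 to 303 against 235 to 885 CPM (4 of 4 tested), with GRdim/dim replicate 1 the highest. Alveolar macrophage markers were 349 to 379 against 211 to 229 CPM without overlap (5 of 6 fitted lower). *Chil3* alone measured 244 to 264 against 95.6 to 161 CPM, and the other 5 of these markers summed to 94.3 to 129 against 55.5 to 128 CPM with overlap. Monocyte and macrophage markers summed to 154 to 246 against 143 to 241 CPM (5 of 7 fitted higher). Plasma cell markers summed to 226 to 314 against 246 to 398 CPM (3 of 3 tested), endothelial markers to 1622 to 2428 against 2086 to 2300 CPM (1 of 4), and epithelial markers to 25560 to 45400 against 30896 to 42969 CPM (2 of 4). Most of the plasma cell sum was *Sdc1*, with means of 255 CPM in GR+/+ and 281 CPM in GRdim/dim lungs. *Jchain* had means of 13.6 and 33.8 CPM (log2 fold change 1.30), with overlapping libraries. Of the 47 markers tested 0 were called by edgeR, where it called 0.169% of all genes. At an unadjusted p-value under 0.05, 13 were higher and 3 lower, beside 4.91% and 4.68% of all genes, and DESeq2 called 3, *Cldn5* and *Retnlg* as higher and *Chil3* as lower, beside 1.71% of all genes. *Tnfrsf17* of the plasma list was at 0 in 1 library of each genotype and *Ly6g* of the neutrophil list was between 0.359 and 3.02 CPM, and neither was tested, while no other marker was at 0.

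The 8 genes other than *Cd207* summed to 114 to 177 CPM in GR+/+ lungs and 138 to 171 CPM in GRdim/dim lungs. Of the companion lists, the migration and maturation genes summed to 434 to 474 against 582 to 615 CPM without overlap. The plasmacytoid genes summed to 98.5 to 131 against 152 to 226 CPM, also without overlap, and the sums of the other companion lists overlapped. *Cd200* and *Socs2* had the highest CPM of the former list, and *Bst2* and *Irf7* of the latter. *Cd207* deviations from the genotype means followed the mean of the T cell markers at r = 0.83 over the 6 libraries. The value was 0.67 for the plasmacytoid genes, 0.66 for the B cell markers and -0.16 for the other cDC1 genes. It was -0.53 for the other C-type lectins and -0.65 for the neutrophil markers. *Clec9a* gave 0.81 with the T cell, 0.77 with the plasmacytoid and 0.85 with the B cell list, so such values were not particular to *Cd207*. The part of these cell types in the levels of *Cd207*, *Itgae*, *Irf4*, *Irf8* and *Ccr7* was not tested.

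**Figure D5:**
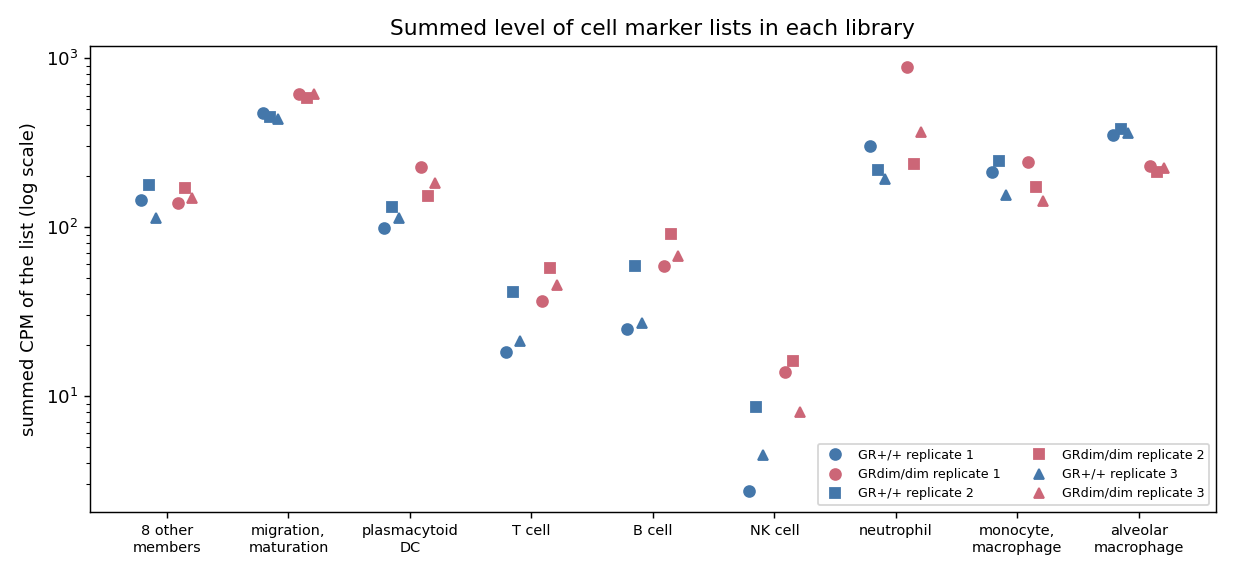
Summed CPM of the 8 genes other than *Cd207*, of companion lists and of markers of other leukocytes in each library, on a log axis (blue, GR+/+; red, GRdim/dim). The sums of the 8 genes interleave between genotypes, the NK cell sums overlap between 8.01 and 8.63 CPM, and the alveolar macrophage sums lie apart at 349 to 379 and 211 to 229 CPM, a separation that *Chil3* carried.

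Genes whose pattern over the 6 libraries was most like that of *Cd207* were sought among 15334 genes with a mean of at least 1 CPM. The closest by log2 CPM were *Cryab* (r = 0.996), *Tiprl* (r = 0.994), *Scimp* (r = 0.992), *Nbdy* (r = 0.991) and *Lgi2* (r = 0.990), with fitted log2 fold changes of 0.69, 0.49, 1.11, 0.59 and 0.71. *Cd209a* came 653rd (r = 0.82) and *Itgae* 1310th (r = 0.72). By deviations from the genotype means the closest were *Cchcr1* (r = 0.998), *Arl2bp* (r = 0.995), *2810001G20Rik* (r = 0.995), *Nat8f1* (r = 0.993) and *4632432E15Rik* (r = 0.993), and *Itgae* came 6704th. No gene was shared by these groups of 5, and none of the 9 dendritic cell genes was in either. These ranks describe 6 shared libraries and carry no statement on function or control.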

How the data were processed

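Lung RNA of 3 GR+/+ and 3 GRdim/dim mice was captured by poly(A) and sequenced, 1 library for each mouse, with genotype and replicate number taken from the sample labels. The authors deposited raw counts of reads per gene, whole numbers without normalization, beside gene lengths and coordinates. The submitters' processing notes name the build mm10 and DESeq2. The aligner, the read counter and whether strand was used are not given in the sources used here. All 9 genes had the same coordinates in GENCODE M21 (GRCm38), as did 53462 of the 54532 genes.

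Counts were fitted in R 4.3.3 with edgeR 4.0.16 (filterByExpr, TMM scaling, robust glmQLFit, glmQLFTest) over 16568 genes with Benjamini-Hochberg adjustment. Genes were called at adjusted p-values under 0.05 if the log2 fold change exceeded 0.5 in size. DESeq2 1.42.0 gave adjusted p-values for 15917 genes. CPM used TMM-scaled totals, with a prior count of 2 for log2 values. Levels per kb used the deposited gene lengths. The procedure was tested on simulated data. With total counts of 15687734 to 32082940, the counting error of the 9 genes was 2.79% to 23.6% per library. Within a genotype the libraries differed beyond sampling noise (chi-square per gene 20.9 to 70.1) and were kept separate.

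The 9 genes and all lists were chosen with earlier results of these data known. Named were the 9 genes, in each list the genes called by edgeR or DESeq2 and the 3 most abundant per kb, *Xcr1*, *Siglech*, *Ccr7*, *Itgb7* and *Flt3l*, and the 5 genes most like *Cd207* by each measure. *Ccl22* and *Cd40*, the genes fitted lower in the migration and maturation list, were added after the values had been seen. Promoters were taken from RefSeq. Alternatives were no low-count filter, a minimum of 10 counts in all 6 libraries, DESeq2, RLE scaling, a sex-linked covariate, a block for the replicate number, leaving out each library, and, added after seeing the data, edgeR's likelihood-ratio test and libraries drawn down to the smallest total. Comparisons made by the authors themselves were not used.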

Additional observations from a re-analysis of the deposited data

How the results depend on the processing

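The fitted log2 fold changes of the 9 genes kept their sign under every alternative run, and their median was 0.28 to 0.34, or 0.15 to 0.50 with 1 library left out. The *Cd207* log2 fold change was 2.10 to 2.21, or 2.0 to 2.31 with 1 library left out. The number of the 9 called was 1 in DESeq2, the likelihood-ratio test, RLE scaling, the stricter filter and without a filter. It was 0 with the sex-linked covariate, with library totals made equal by drawing and with any 1 library left out (0 to 0). Over all genes, 28 were called by edgeR's quasi-likelihood test, 272 by DESeq2, 245 by the likelihood-ratio test, 522 without a filter on low counts and 4 to 22 with 1 library left out. Of the companion genes 0 were called, against 4 by DESeq2, 2 by the likelihood-ratio test, 8 without a filter, and 0 to 0 with 1 library left out. Why these counts moved was not tested. With the replicate number as a block, 34 genes and 0 of the 9 were called, and the *Cd207* log2 fold change was 2.14. Deviations over genes correlated at r = 0.26, 0.057 and -0.043 between libraries of the same number, and at -0.31 to 0.20 between other libraries of the 2 genotypes. Replicates 1 of both genotypes had the Y-linked pattern and replicates 2 the *Xist* pattern, while replicates 3 differed. What else a shared number stands for is not given by the labels. Among the companions, 0 genes were called by the block. Counting error was largest for *Cd207* in GR+/+ replicate 1 (18 counts, 23.6%) and for *Batf3* in GRdim/dim replicate 1 (25 counts). The smallest p that exact permutation of 3 and 3 lungs can give is 0.1.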
